A study of Mus musculus with 8 samples.

Results

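Of the 38283 genes in the liver RNA-seq table, 58 encode cytochrome P450 enzymes of families 1, 2 and 3. They were taken by name, after 36425 of the Ensembl identifiers had been matched to GENCODE M21. A gene was taken if it is protein-coding and its symbol is Cyp with a family number of 1, 2 or 3, a single subfamily letter and a gene number. The 58 genes fall into 16 subfamilies, and 37 of them reached an FPKM above 1 in at least 1 library. FPKM counts mapped fragments relative to the length of the transcript and to the size of the library. The other 21 stayed at or below 1 in every library, 7 of them at 0 throughout. Symbols of these families that do not match this form were not counted, among them Cyp2ab1, Cyp3a41a, Cyp3a41b and pseudogenes, 11 in all.

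RNA was sequenced from whole liver of male C57BL/6 mice, and the question was how liver-specific loss of the nuclear receptor RORα changes liver mRNA under each diet. In RORα f/f mice exons 4 and 5 of Rora are flanked by loxP sites. RORα LKO mice have the same floxed alleles together with Cre recombinase driven by the albumin promoter (Alb-cre). Cre driven in this way acts mainly in hepatocytes, and how far other cells of the liver keep Rora is not shown by these data. From 8 weeks of age mice of either genotype were given a control diet (CD) or a high-fat diet (HFD, 60% of kcal as fat) for 10 weeks. Each of the 4 groups had 4 mice, whose livers were pooled by 2 into 2 libraries, so that the spread between libraries understates the spread between single animals. A library detected 10587 to 10706 genes above 1 FPKM, and the FPKM table does not give read depth. The FPKM of Rora covers the whole gene and need not fall when exons 4 and 5 are removed. On CD it was 8.85 and 8.59 in f/f and 7.96 and 8.18 in LKO libraries, and on HFD 7.56 and 7.86 in f/f and 7.30 and 8.02 in LKO libraries, where the labels overlapped. Its log2 fold change was −0.10 (adjusted p = 0.61) on CD and 0.01 (adjusted p = 0.97) on HFD in limma. Libraries are therefore named by their labels. Those labelled KO are called LKO-labelled and those labelled WT are called f/f-labelled, after the genotypes in the study's methods. Xist, which marks female cells, was at 0.0132 to 0.151 FPKM and the Y-linked Ddx3y at 15.5 to 20.4 in the 8 libraries, as in livers of males. Of the hepatocyte markers Apoa1 was at 4407 to 6290 FPKM, Ttr at 3994 to 4541 and Serpina1c at 739 to 1234. Tat, a tyrosine aminotransferase of hepatocytes, had 876 and 1036, 480.4 and 586, 322 and 250.4, and 302 and 284 FPKM in the 2 libraries each of CD-fed f/f, CD-fed LKO, HFD-fed f/f and HFD-fed LKO. It fell with HFD (−1.14, SE 0.12, adjusted p = 0.0061 over the genotype labels in limma), and its log2 fold change for LKO against f/f on CD was −0.74 (SE 0.18, unadjusted p = 0.0043, adjusted p = 0.22). The 4 adipocyte markers summed to at most 0.552. The 3 erythroid markers summed to 59.4 to 226 on CD and 42.5 to 106 on HFD. Alb, which encodes albumin, was listed at 0 in 4 libraries and at 29902 to 30888 in the others, and 71 genes were listed at 0 in some library and above 100 in another. An exact 0 in this table can therefore be a failed estimate.

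P450 enzymes of families 1 to 3 are heme proteins of the endoplasmic reticulum that add oxygen to drugs, toxicants, steroids and fatty acids, with electrons passed on by P450 oxidoreductase. Hepatocytes hold most of them, largely around the central vein, and in mice many arose by tandem duplication and differ between the sexes through the pulsed secretion of growth hormone. The nuclear receptors CAR and PXR and the Ah receptor are their best known activators, with Cyp2b10, Cyp3a11 and Cyp1a2 as the usual readouts of each.

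Most of the genes lie in tandem arrays. On GRCm38, 13 of them, with the Cyp2a, Cyp2b, Cyp2f, Cyp2g, Cyp2s and Cyp2t genes, stand between 25802475 and 27158668 on chromosome 7. A further 14 Cyp2c genes stand between 39007019 and 40187333 on chromosome 19, and 8 Cyp2d genes between 82370527 and 82794294 on chromosome 15. Chromosome 4 holds 8 Cyp2j genes between 96027534 and 96664154, and chromosome 5 holds 6 Cyp3a genes between 145345279 and 146113287. Reads from near-identical copies cannot be placed with certainty. In the longest coding transcript of each gene, the share of 50-base words also found in a transcript of another gene was 72.1% for Cyp2c40, 54.8% for Cyp2c69, 40.8% for Cyp2a5, 30.7% for Cyp2c50 and 30.1% for Cyp2c37. It was 28.0% for Cyp3a59, 26.8% for Cyp3a25, 27.3% for Cyp2b13, 14.8% for Cyp3a11, 11.2% for Cyp2b9, 9.70% for Cyp2b10, 2.08% for Cyp2c29 and 0.514% for Cyp2c55. How Cufflinks divided the shared reads was not tested, and FPKM is the less certain the higher this share.

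The promoters of 3 neighbouring Cyp2b genes are shown because 2 of these genes rose and the other fell on HFD. The sequences are from RefSeq on GRCm38.p6, run 5′ to 3′ on the strand of the gene, and cover 250 bases before and 50 bases after its start. Capitals mark 3 hexamers of the kind that nuclear receptors bind, which are AGGTCA and its variants GGGTCA and AGTTCA, read on either strand.
Cyp2b10 chr7:25897408-25897707 (plus strand): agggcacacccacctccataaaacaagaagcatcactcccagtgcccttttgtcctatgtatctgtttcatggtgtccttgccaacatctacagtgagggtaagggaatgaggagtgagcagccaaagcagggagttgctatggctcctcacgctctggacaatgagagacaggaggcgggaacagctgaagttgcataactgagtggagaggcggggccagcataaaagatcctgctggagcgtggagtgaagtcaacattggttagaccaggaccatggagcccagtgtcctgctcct
Cyp2b13 chr7:26061245-26061544 (plus strand): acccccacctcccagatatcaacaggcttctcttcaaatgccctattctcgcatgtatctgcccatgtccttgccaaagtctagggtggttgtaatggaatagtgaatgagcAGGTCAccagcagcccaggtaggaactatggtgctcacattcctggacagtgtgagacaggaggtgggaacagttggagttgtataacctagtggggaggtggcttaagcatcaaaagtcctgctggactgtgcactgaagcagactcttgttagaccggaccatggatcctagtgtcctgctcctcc
Cyp2b9 chr7:26173159-26173458 (plus strand): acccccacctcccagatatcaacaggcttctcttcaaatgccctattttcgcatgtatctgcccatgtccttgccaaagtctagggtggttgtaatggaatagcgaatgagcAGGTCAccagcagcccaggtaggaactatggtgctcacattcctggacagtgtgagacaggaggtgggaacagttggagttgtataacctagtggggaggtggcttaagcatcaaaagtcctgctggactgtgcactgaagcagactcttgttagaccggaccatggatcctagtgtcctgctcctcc
The Cyp2b13 and Cyp2b9 promoters were identical at 298 of 300 aligned positions (99.3%), including the single AGGTCA of each. Cyp2b10 shared 229 of 314 aligned positions with either (72.9%) and held none of the 3 hexamers. In the genome Cyp2b10 ends 135 kb before Cyp2b13, and Cyp2b13 ends 77.2 kb before Cyp2b9.

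The promoters of 3 neighbouring Cyp3a genes are shown because their FPKM was higher in LKO-labelled than in f/f-labelled libraries on HFD.
Cyp3a11 chr5:145879805-145880104 (minus strand): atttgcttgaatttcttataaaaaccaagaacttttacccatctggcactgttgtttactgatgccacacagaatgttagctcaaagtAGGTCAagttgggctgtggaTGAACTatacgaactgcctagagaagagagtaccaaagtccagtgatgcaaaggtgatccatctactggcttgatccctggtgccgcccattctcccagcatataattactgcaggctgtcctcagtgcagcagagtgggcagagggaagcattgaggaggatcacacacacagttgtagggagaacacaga
Cyp3a25 chr5:146009569-146009868 (minus strand): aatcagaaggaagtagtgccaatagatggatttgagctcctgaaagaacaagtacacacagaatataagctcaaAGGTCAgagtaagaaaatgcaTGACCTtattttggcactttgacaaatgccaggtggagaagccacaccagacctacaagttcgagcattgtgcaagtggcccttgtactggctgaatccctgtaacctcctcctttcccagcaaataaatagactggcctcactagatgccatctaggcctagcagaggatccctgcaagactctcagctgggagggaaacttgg
Cyp3a59 chr5:146079008-146079307 (plus strand): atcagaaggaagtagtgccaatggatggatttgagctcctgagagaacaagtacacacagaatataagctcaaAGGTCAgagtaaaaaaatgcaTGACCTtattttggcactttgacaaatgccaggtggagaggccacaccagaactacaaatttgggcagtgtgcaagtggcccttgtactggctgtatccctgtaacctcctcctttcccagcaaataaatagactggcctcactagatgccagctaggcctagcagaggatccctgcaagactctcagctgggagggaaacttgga
Cyp3a25 and Cyp3a59 lie head to head on opposite strands, 69.6 kb apart. Their promoters were identical at 288 of 301 aligned positions (95.7%), and each holds AGGTCA once on each strand. Cyp3a11 was identical to them at 55.7% and 56.6% of aligned positions, and held 1 AGGTCA and 1 AGTTCA. The hexamer AGGTCA was present in 16% of 27025 RefSeq promoters of this length, GGGTCA in 13.5%, AGTTCA in 14%, and any of the 3 in 37.2%. Among the 50 of the 58 genes with a RefSeq promoter, AGGTCA was present in 18 (36%), GGGTCA in 4 (8%), AGTTCA in 5 (10%) and any of them in 26 (52%). Close copies share these letters, so that the 50 are not independent of each other, and a match is not a measured binding site.

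Libraries are given below in a fixed order, the 2 libraries each of CD-fed f/f, CD-fed LKO, HFD-fed f/f and HFD-fed LKO, as deposited FPKM. Cyp2e1, which oxidizes ethanol and other small molecules, was the most abundant of the 58 genes in every library, with 4285 and 4680.2, 3875 and 4102, 6332 and 6173, and 5512 and 6770.1 FPKM. Cyp2d9, a steroid hydroxylase predominant in males, came next by mean, with 1092 and 1023, 1012 and 1251, 910.0 and 847, and 920.1 and 921. The other 8 of the 10 most abundant by mean were Cyp3a11, Cyp2c29, Cyp2d26, Cyp2c50, Cyp2f2, Cyp2a5, Cyp2d10 and Cyp2a12. Of these, Cyp2d10, an array neighbour of Cyp2d9, had 427 and 388, 387 and 421, 399 and 383, and 341 and 358. Cyp2a12, a steroid hydroxylase, had 357 and 302, 315 and 319.8, 312 and 332, and 294 and 384. Both overlapped over the diets. Cyp2c50 had 619.7 and 552, 529 and 521, 415 and 453, and 461 and 592. Its diets overlapped in LKO-labelled libraries, and in f/f-labelled libraries HFD was lower. Cyp2a5, the coumarin hydroxylase, had 491 and 454, 320.1 and 359, 378 and 513, and 332 and 509. On CD both of its LKO-labelled libraries lay below both f/f-labelled libraries (log2 fold change −0.50, SE 0.21, adjusted p = 0.40 in limma). Cyp1a1, Cyp1b1, Cyp2s1 and Cyp2w1, which are mostly found outside the liver or after induction, were at most 0.267 FPKM in every library. The summed FPKM of all 58 genes was 12693 and 12174, 11496 and 12129, 12003 and 12402, and 11598 and 13558. The ratio of the group means, HFD over CD, was 0.981 for f/f-labelled and 1.06 for LKO-labelled libraries. With the sum taken as a share of the library's summed FPKM over all genes, these ratios were 1.15 and 1.10.

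**Figure D1:**
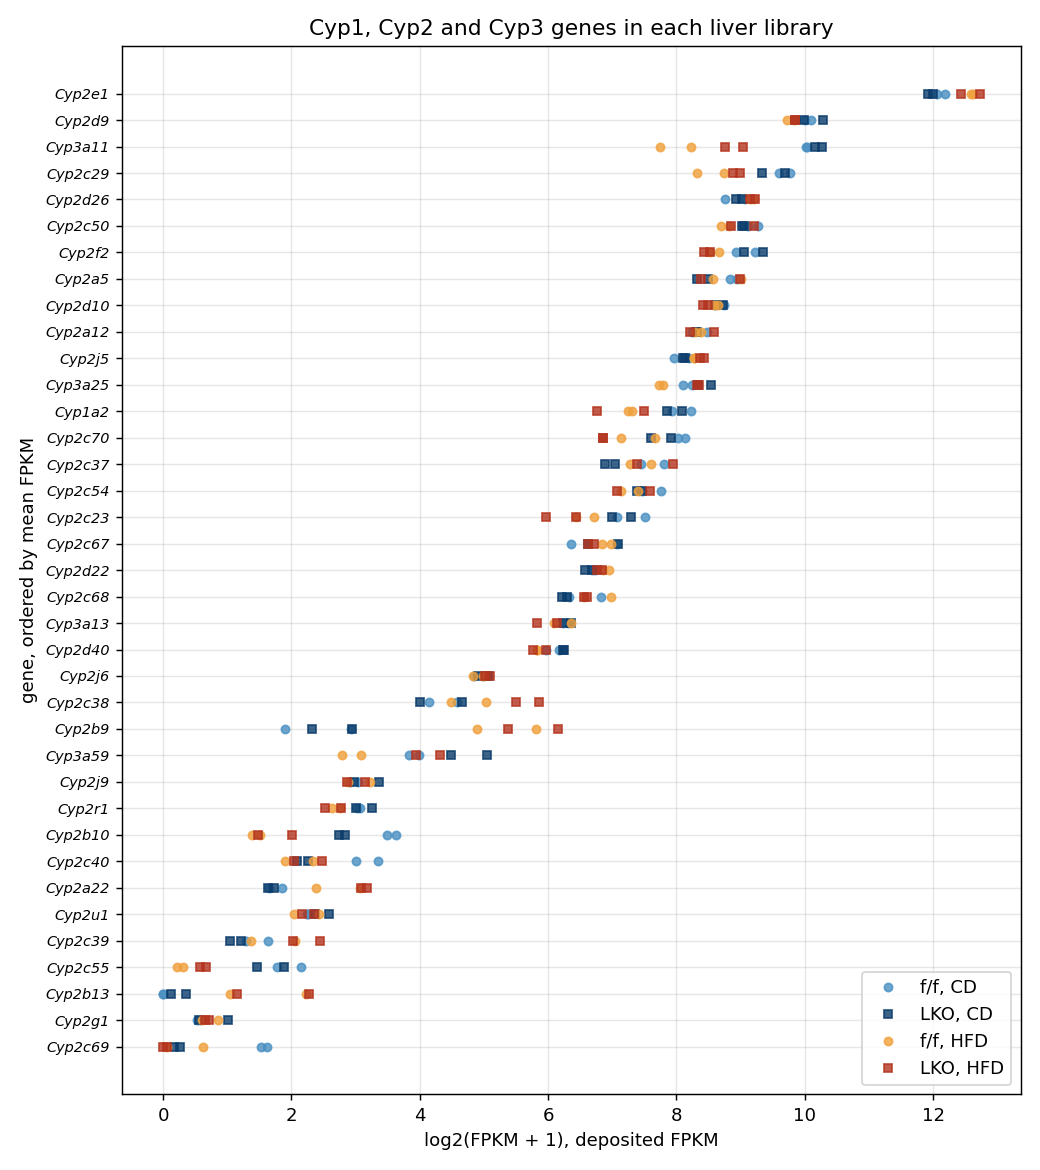
Deposited FPKM of the 37 genes above 1 in at least 1 library, as log2(FPKM + 1) on the horizontal axis, with 1 point per library (circles f/f, squares LKO, blue CD, orange and red HFD). Cyp2e1 lies apart at the top, and Cyp2b9, Cyp3a11, Cyp2b10 and Cyp2c55 show the widest gaps between the diets.

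HFD changed these genes in both directions. Averaged over the genotype labels, 8 of the 37 genes rose and 11 fell (adjusted p under 0.05 in limma on log2(FPKM + 1), adjusted over 11634 genes). Over all genes tested 9.89% were called, 5.04% higher and 4.86% lower. In f/f-labelled libraries alone 6 genes changed, 2 higher and 4 lower (1.33% of all genes), and in LKO-labelled libraries 7 changed, 4 higher and 3 lower (3.02% of all genes). In whole liver fewer cells of a type and less mRNA per cell cannot be told apart. A log2 fold change of 0.5 or more in size, with no overlap of the diets, was found for 14 of the 37 genes in f/f-labelled (6.46% of all genes) and 15 in LKO-labelled libraries (7.13% of all genes). Over the genotype labels the log2 fold changes of the 37 genes ranged from −1.55 to 3.07. Their median was −0.05, and that of all genes 0.01. Without normalization between libraries 5 rose and 12 fell over the genotype labels, 1 rose and 4 fell in f/f-labelled and 3 rose and 5 fell in LKO-labelled libraries. The calls that this loses over the genotype labels are those of Cyp2j5, Cyp2d26 and Cyp2d22, and it adds Cyp2d40, lower on HFD. Counts without normalization, and those below with a library left out, are not set against the share of all genes called. With any 1 of the 8 libraries left out, 9 to 12 of the 37 genes were called over the genotype labels, 0 to 3 in f/f-labelled and 0 to 5 in LKO-labelled libraries. Whichever library was left out, 8 of the 19 genes kept their call over the genotype labels, Cyp2b9, Cyp2a22, Cyp2e1, Cyp2j5, Cyp2b10, Cyp3a11, Cyp2c55 and Cyp2c29. The other 11 kept it in at most 3 of the 8 fits, and 0 of the calls within a label were kept in all 8.

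On the log2 scale the largest rise was that of Cyp2b9, a steroid hydroxylase predominant in females, which had 2.75 and 6.62, 6.74 and 4.02, 28.6 and 55.1, and 40.4 and 69.9 FPKM. Each HFD-fed library lay above each CD-fed library, and the group mean on HFD was 8.93 times that on CD for f/f and 10.3 times for LKO. In limma its log2 fold change was 2.95 (SE 0.46, adjusted p = 0.042) in f/f-labelled and 3.18 (SE 0.46, adjusted p = 0.025) in LKO-labelled libraries. Over both it was 3.07 (SE 0.33, adjusted p = 0.0059). Cyp2b13, its close copy, also predominant in females, had 0 and 0, 0.283 and 0.0844, 1.07 and 3.70, and 1.22 and 3.81 FPKM, again with no overlap between the diets. Its group mean on HFD was 13.7 times that on CD for LKO, and both CD-fed f/f libraries were listed at 0. It rose over the genotype labels by 1.55 (SE 0.33, adjusted p = 0.035) on the log2 scale in limma. Its values within each label did not pass (1.65, adjusted p = 0.14, and 1.45, adjusted p = 0.15). In both genes the libraries of an HFD-fed group differed from each other more than the group means of the labels did. For a gene listed at 0 the fitted value depends on the 1 that was added to each FPKM.

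Cyp2b10, the standard target of CAR and the neighbour of this pair, went the other way. It had 10.2 and 11.4, 6.13 and 5.70, 1.63 and 1.86, and 3.03 and 1.78 FPKM, and the CD-fed libraries lay above all the HFD-fed libraries. The mean on CD was 6.22 times that on HFD in f/f-labelled and 2.46 times in LKO-labelled libraries. The log2 fold changes for HFD against CD were −2.07 (SE 0.17, adjusted p = 0.0089) and −1.03 (SE 0.17, adjusted p = 0.036) in limma. The summed FPKM of the 5 Cyp2b genes was 13.0 and 18.1, 13.2 and 9.80, 31.3 and 60.6, and 44.7 and 75.5. Cyp2b19 and Cyp2b23, the other members of the subfamily, were listed at 0 in all libraries.

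**Figure D2:**
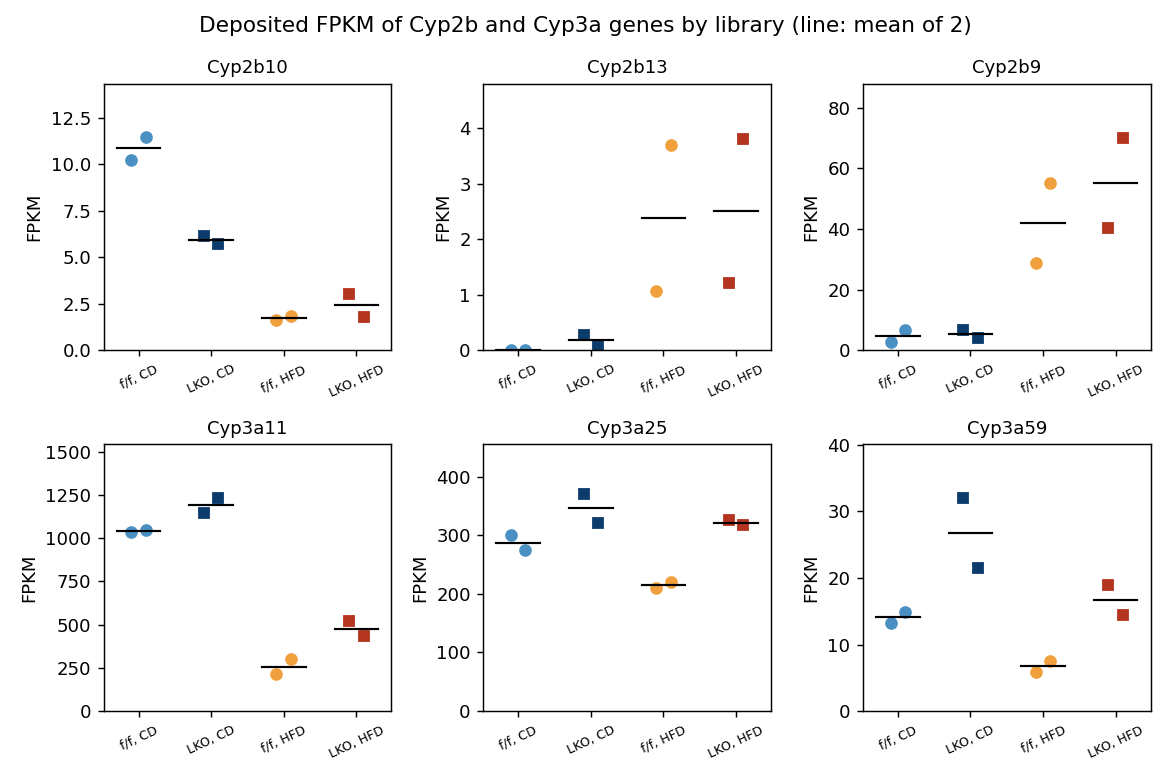
Deposited FPKM of 3 Cyp2b and 3 Cyp3a genes by library, with a point per library and a line at the mean of the 2 libraries of a group. On HFD Cyp2b9 and Cyp2b13 lie higher and Cyp2b10 lower than on CD, and the 3 Cyp3a genes lie higher in LKO-labelled than in f/f-labelled libraries on either diet.

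Cyp3a11, the main Cyp3a enzyme of mouse liver and the standard target of PXR, had 1033 and 1045, 1146 and 1234, 214 and 298, and 522 and 431 FPKM. The CD-fed libraries ranged from 1033 to 1234 and the HFD-fed libraries from 214 to 522. The mean on CD was 4.06 times that on HFD in f/f-labelled and 2.50 times in LKO-labelled libraries. In limma the log2 fold changes were −1.92 (SE 0.19, adjusted p = 0.020) and −1.14 (SE 0.19, adjusted p = 0.035). Cyp3a59 had 13.3 and 15.0, 32.1 and 21.5, 5.91 and 7.50, and 19.0 and 14.4 FPKM. It fell over the genotype labels (−0.77, SE 0.16, adjusted p = 0.029 in limma), with no overlap between the diets within each label. Cyp3a25 had 301 and 274, 371 and 322, 211 and 220.5, and 326 and 318. In f/f-labelled libraries its values were lower on HFD (log2 fold change −0.31, SE 0.09, adjusted p = 0.14 in limma). In LKO-labelled libraries the diets overlapped, and the log2 fold change was 0.11 with and −0.10 without normalization. Cyp3a13, which lies apart from the array on chromosome 5, ranged from 55.8 to 81.0 with the diets overlapping, and Cyp3a16, Cyp3a44 and Cyp3a57 were at or below 0.106 in every library. The summed FPKM of the 7 Cyp3a genes was 1426 and 1408, 1630.2 and 1651, 498 and 607, and 922 and 833. This is a ratio of HFD to CD means of 0.390 in f/f-labelled and 0.535 in LKO-labelled libraries.

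Among the Cyp2c genes the changes with diet ran both ways. Cyp2c55, an epoxygenase that xenobiotics induce, had 2.42 and 3.42, 2.67 and 1.75, 0.157 and 0.244, and 0.495 and 0.594 FPKM, and all its CD-fed libraries lay above all its HFD-fed libraries. Its log2 fold change was −1.73 (SE 0.19, adjusted p = 0.026) in f/f-labelled and −1.02 (SE 0.19, adjusted p = 0.045) in LKO-labelled libraries in limma. The log2(FPKM + 1) scale understates changes at such low FPKM. Cyp2c29, an abundant epoxygenase of arachidonic acid, had 876 and 770.1, 829 and 643, 320.0 and 427, and 473 and 507 FPKM. It fell in f/f-labelled libraries (−0.96, SE 0.14, adjusted p = 0.038 in limma) and over the labels (−0.71, SE 0.10, adjusted p = 0.010). In LKO-labelled libraries its log2 fold change was −0.45 (adjusted p = 0.13), and the diets did not overlap there either. Cyp2c70, which makes the muricholic acids of mouse bile, had 259 and 279.7, 194 and 239, 140.4 and 202, and 115 and 115. It fell over the genotype labels (−0.70, SE 0.12, adjusted p = 0.019 in limma). Cyp2c23, an epoxygenase that lies apart from the Cyp2c array, had 182 and 134, 126 and 156, 85.7 and 104, and 61.6 and 85.5. It also fell (−0.77, SE 0.14, adjusted p = 0.023 in limma). Cyp2c38 had 22.9 and 16.7, 24.2 and 15.0, 21.5 and 31.8, and 57.2 and 44.5, highest in the HFD-fed LKO libraries. It rose over the genotype labels (0.91, SE 0.21, adjusted p = 0.041 in limma), and in LKO-labelled libraries alone its log2 fold change was 1.39 (adjusted p = 0.058). The summed FPKM of the 15 Cyp2c genes was 2659 and 2274, 2163 and 2100.5, 1487 and 1837, and 1669.8 and 1985. Every HFD-fed library lay below every CD-fed library in this sum. As a share of the library's summed FPKM over all genes the diets overlapped, with 0.231% to 0.330% on CD and 0.197% to 0.265% on HFD.

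Outside these subfamilies, Cyp1a2, which demethylates caffeine and is the usual readout of the Ah receptor, had 297 and 244, 231 and 270.1, 158 and 150.0, and 108 and 179.8 FPKM. It fell over the genotype labels (−0.73, SE 0.15, adjusted p = 0.032 in limma). Cyp2f2, an enzyme of naphthalene metabolism, had 594 and 487, 529 and 652, 402 and 367, and 343 and 365. Cyp2r1, a vitamin D 25-hydroxylase, had 7.42 and 7.15, 8.54 and 7.04, 5.19 and 5.74, and 5.85 and 4.77. Both fell over the genotype labels, with log2 fold changes of −0.48 (SE 0.11, adjusted p = 0.045) and −0.39 (SE 0.09, adjusted p = 0.040) in limma, and in both the diets did not overlap. Cyp2a22 had 2.61 and 2.15, 2.33 and 2.10, 4.21 and 7.41, and 8.01 and 7.46 FPKM. It rose in LKO-labelled libraries (1.48, SE 0.22, adjusted p = 0.026 in limma) and over the labels (1.23, SE 0.15, adjusted p = 0.0081). In f/f-labelled libraries its log2 fold change was 0.97 (adjusted p = 0.085). Smaller rises over the genotype labels were those of 3 further genes. Cyp2j5, an epoxygenase, had 291 and 248, 279 and 273, 309.9 and 308, and 328 and 342 (log2 fold change 0.39, SE 0.05, adjusted p = 0.011 in limma). Cyp2d26 had 536 and 431, 517 and 488, 568 and 589, and 563 and 599.8 (0.38, SE 0.07, adjusted p = 0.022). Cyp2d22 had 102 and 105, 93.9 and 102, 114 and 123, and 108 and 114 (0.25, SE 0.05, adjusted p = 0.028). In these 3 genes every HFD-fed library lay above every CD-fed library, and their calls were those lost without normalization.

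Cyp2e1 rose in each label in the normalized values, by 0.67 (SE 0.10, adjusted p = 0.039) in f/f-labelled and 1.17 (SE 0.10, adjusted p = 0.0095) in LKO-labelled libraries on the log2 scale in limma. Its HFD-fed libraries ranged from 5512 to 6770.1 FPKM and its CD-fed libraries from 3875 to 4680.2. Over the genotype labels quantile normalization raised the log2 fold change with HFD in each of the 10 genes of highest mean FPKM. It was 0.16 with and 0.03 without normalization for Cyp2a12, and −0.05 and −0.22 for Cyp2c50. Without normalization the log2 fold changes of Cyp2e1 were 0.48 (adjusted p = 0.096) in f/f-labelled and 0.62 (adjusted p = 0.043) in LKO-labelled libraries in limma. Over both they were 0.55 (adjusted p = 0.013) without and 0.92 (SE 0.07, adjusted p = 0.0031) with normalization. With normalization but without the genes listed at 0 in any library, an alternative chosen after seeing the data, they were 0.56 in f/f-labelled and 1.09 in LKO-labelled libraries and 0.82 over both.

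**Figure D3:**
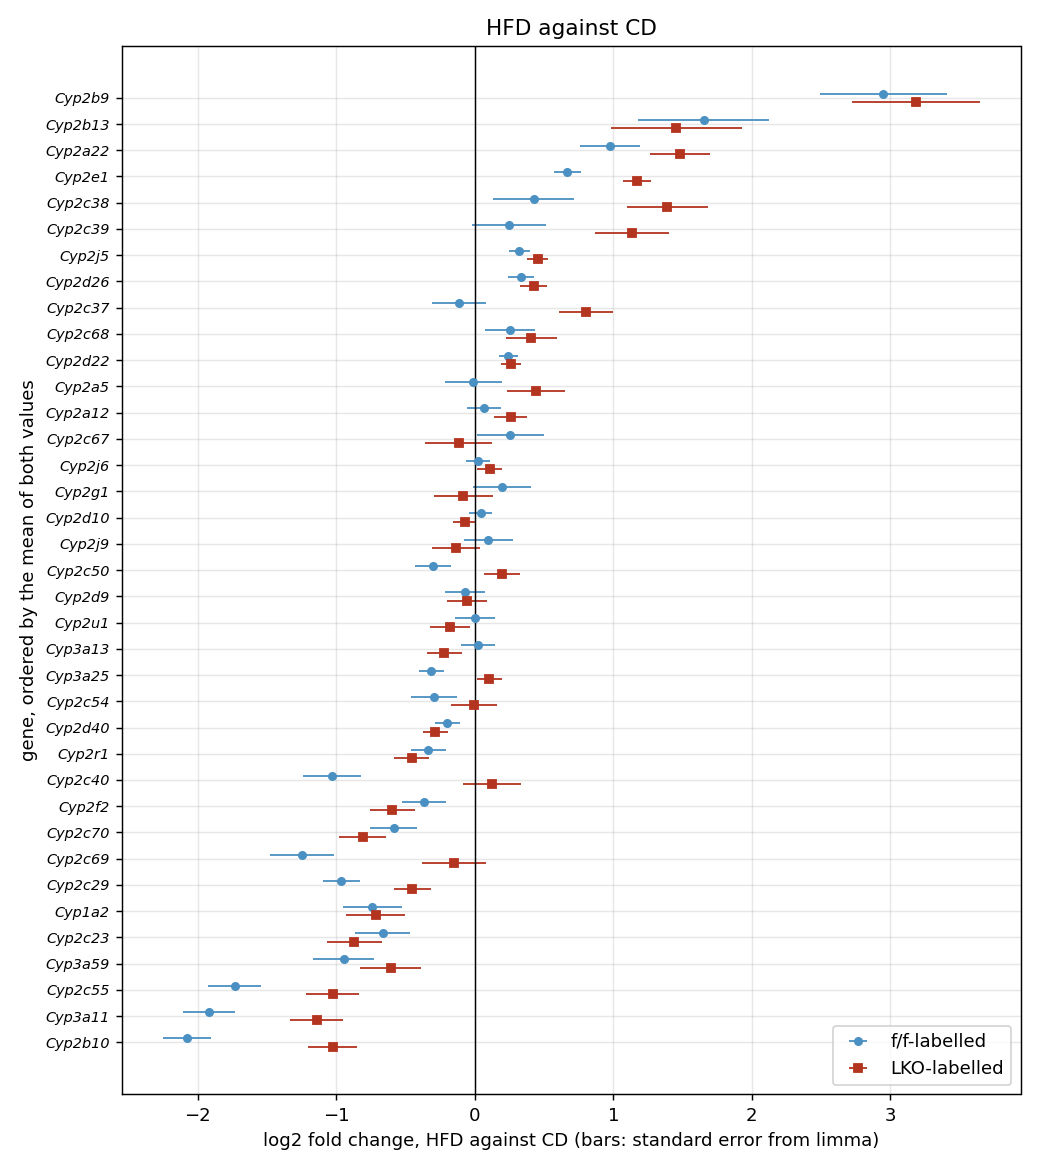
Log2 fold change of HFD against CD for 37 genes in f/f-labelled (circles) and LKO-labelled (squares) libraries, with the standard error from limma as bars. Cyp2b9 stands near 3 in both, whereas Cyp2b10, Cyp3a11 and Cyp2c55 lie between −2.07 and −1.02.

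**Figure D4:**
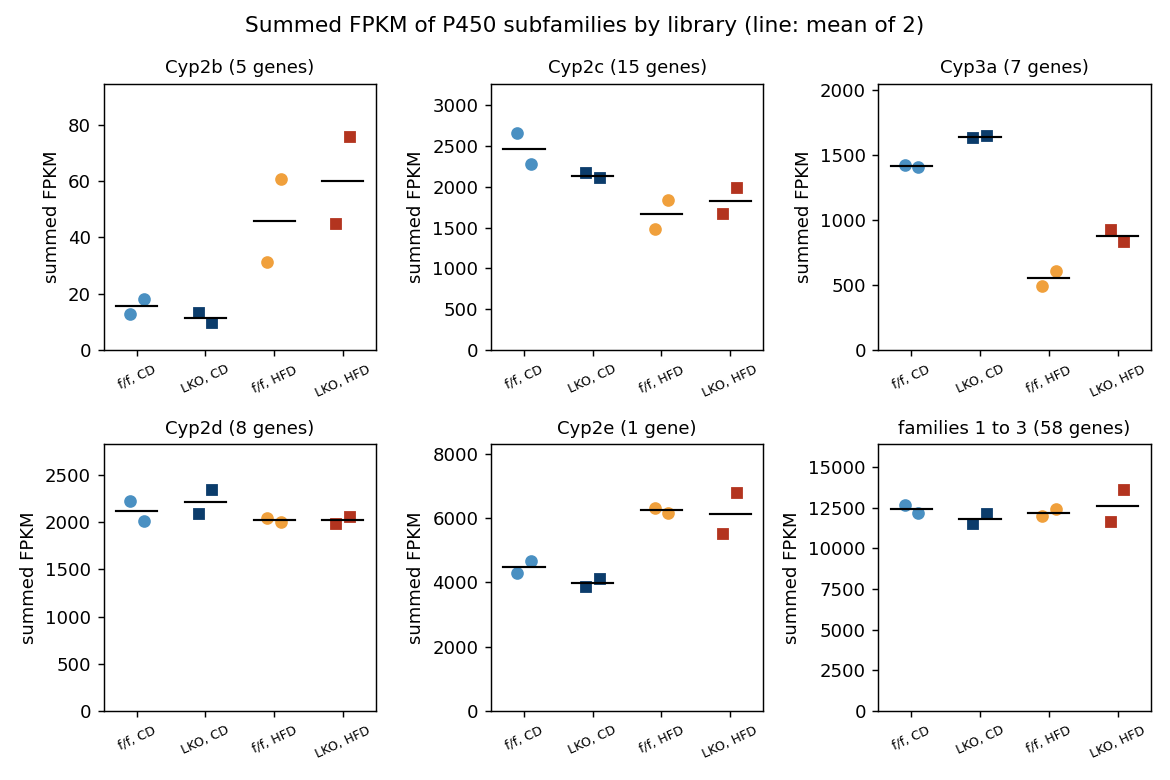
Summed FPKM of the genes of a subfamily by library, with a point per library and a line at the mean of the 2 libraries of a group. The Cyp3a and Cyp2c sums lie lower and the Cyp2b and Cyp2e sums higher on HFD, while the sum over all 58 genes lies between 11496 and 13558 in the 8 libraries.

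Between the genotype labels no P450 gene passed the adjusted threshold on either diet. On CD 0 of the 37 genes and 0.0172% of all genes had an adjusted p under 0.05 in limma, and on HFD 0 and 0.043%. At an unadjusted p under 0.05, there were 7 genes on CD, 2 higher and 5 lower in LKO-labelled libraries (12.3% of all genes), and 8 on HFD, 7 higher and 1 lower (9.58% of all genes). Without normalization between libraries Cyp2a5 left the 7, and Cyp2c29, Cyp2c50 and Cyp2e1, all counted as higher, left the 8. The log2 fold change of Cyp2e1 on HFD was then −0.03. With no overlap of the labels and a log2 fold change of 0.5 or more in size there were 6 genes on CD, 1 higher and 5 lower (3.52% of all genes), and 5 on HFD, 4 higher and 1 lower (3.09% of all genes). Averaged over the diets 0 genes passed (0.103% of all genes) and 6 had an unadjusted p under 0.05, 3 higher and 3 lower (13.5% of all genes). On HFD the log2 fold change of the 5 Kupffer cell and macrophage markers was 0.39 to 0.54 in favour of LKO-labelled libraries. In limma 0 of 5 were called and 2 of 5 had an unadjusted p under 0.05. Their summed FPKM was 55.5 to 63.5 in HFD-fed f/f and 70.0 to 89.5 in HFD-fed LKO libraries, and their part in the P450 values was not tested. Outside the P450 families, 9 of 10 periportal markers had lower and 8 of 10 pericentral markers higher values in LKO-labelled libraries on HFD, with median log2 fold changes of −0.24 and 0.15. In limma 0 of the 20 were called, 4 periportal and 3 pericentral markers had an unadjusted p under 0.05, and their part was not tested either.

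Cyp3a11, Cyp3a25 and Cyp3a59 had higher FPKM in both LKO-labelled than in both f/f-labelled libraries on each diet, and 0 of these 3 genes were called in limma. Cyp3a25 did not overlap between the labels over both diets, with 318 to 371 FPKM in the 4 LKO-labelled and 211 to 301 in the 4 f/f-labelled libraries. In limma its log2 fold change was 0.22 (SE 0.09, unadjusted p = 0.048, adjusted p = 0.40) on CD and 0.64 (SE 0.09, unadjusted p = 0.00025, adjusted p = 0.14) on HFD. Over the diets it was 0.43 (SE 0.06, unadjusted p = 0.00034, adjusted p = 0.083). Cyp3a59, the array neighbour with the near-identical promoter, had log2 fold changes of 0.88 (SE 0.22, unadjusted p = 0.0055, adjusted p = 0.23) on CD and 1.22 (SE 0.22, unadjusted p = 0.00094, adjusted p = 0.20) on HFD in limma. Its mean in LKO-labelled libraries was 1.90 and 2.49 times that in f/f-labelled libraries. Cyp3a11 had a log2 fold change of 0.19 (SE 0.19, adjusted p = 0.71) on CD in limma. On HFD its mean was 1.86 times as high in LKO-labelled as in f/f-labelled libraries. The log2 fold change was 0.96 (SE 0.19, unadjusted p = 0.0016, adjusted p = 0.23) in limma. The ratio of the LKO to the f/f mean of the summed Cyp3a FPKM was 1.16 on CD and 1.59 on HFD.

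Most Cyp2b and Cyp2c genes that stood apart on CD were lower in LKO-labelled libraries. Cyp2b10 was lower in both CD-fed LKO libraries (log2 fold change −0.76, SE 0.17, unadjusted p = 0.0037, adjusted p = 0.21 in limma) and overlapped between the labels on HFD. Cyp2c40, predominant in females, had 9.21 and 7.06, 3.27 and 3.78, 2.75 and 4.04, and 3.13 and 4.56 FPKM. Its CD-fed f/f libraries lay above the other 6 (−1.01, SE 0.21, unadjusted p = 0.0021, adjusted p = 0.20 on CD in limma). Cyp2c69, its close copy, had 1.88 and 2.06, 0.127 and 0.200, 0.0479 and 0.546, and 0.0394 and 0 FPKM and the same order. Its log2 fold change on CD was −1.38 (SE 0.23, unadjusted p = 0.00062, adjusted p = 0.15) in limma. It was also among the genes that fell with HFD over the genotype labels (−0.70, SE 0.16, adjusted p = 0.044 in limma). In LKO-labelled libraries alone the log2 fold change with HFD was −0.15 (SE 0.23, adjusted p = 0.76) in limma. Cyp2c37 had 222 and 173, 118 and 131, 154 and 193, and 167 and 246. It was lower in both CD-fed LKO libraries (−0.64, SE 0.19, unadjusted p = 0.013, adjusted p = 0.29 in limma), and the labels overlapped on HFD. On HFD Cyp2c38 was higher (0.96, SE 0.29, unadjusted p = 0.014, adjusted p = 0.36) and Cyp2c70 lower (−0.53, SE 0.17, unadjusted p = 0.018, adjusted p = 0.38) in both LKO-labelled libraries, each from limma.

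**Figure D5:**
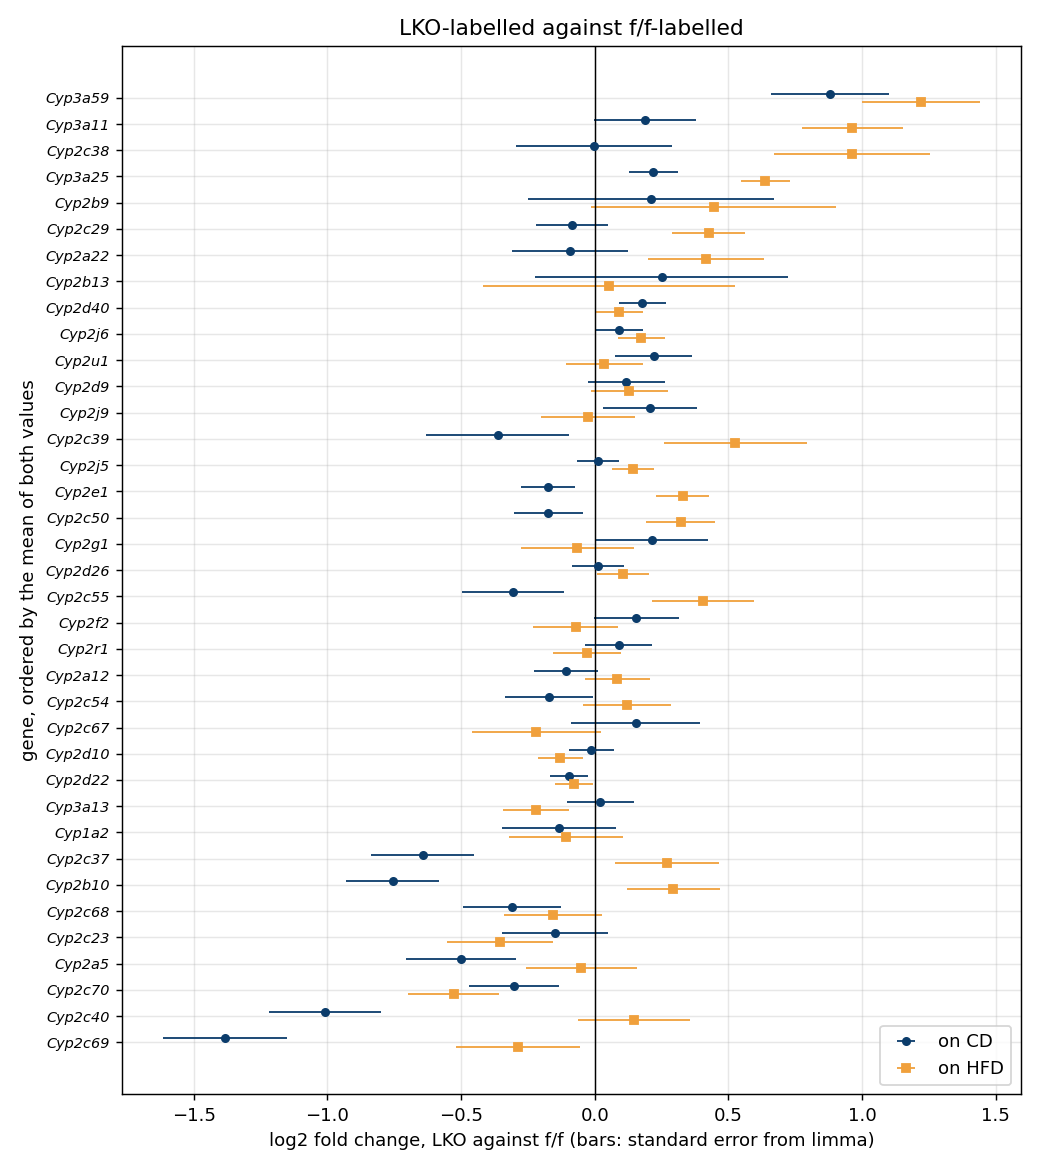
Log2 fold change of LKO-labelled against f/f-labelled libraries for 37 genes on CD (circles) and HFD (squares), with the standard error from limma as bars. Cyp3a59 is the highest on both diets, Cyp2c69 and Cyp2c40 are the lowest on CD, and 0 genes had an adjusted p under 0.05.

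The difference of the genotype label between the diets was tested as an interaction. No P450 gene passed (0 of 37, against 0.0344% of all genes with an adjusted p under 0.05 in limma). At an unadjusted p under 0.05 there were 10 genes, all with a higher log2 fold change on HFD than on CD, where 8.35% of all genes had such a p and 4.35% in that direction. In all 10 the 4 differences between an LKO-labelled and an f/f-labelled library on HFD lay above the 4 on CD. Among these 10, the 5 largest interactions were those of Cyp2c40, Cyp2c69, Cyp2b10, Cyp2c37 and Cyp3a11. In limma they were 1.15 (SE 0.30, unadjusted p = 0.0062, adjusted p = 0.56) for Cyp2c40 and 1.10 (SE 0.33, unadjusted p = 0.013, adjusted p = 0.56) for Cyp2c69. For Cyp2b10 the interaction was 1.05 (SE 0.25, unadjusted p = 0.0040, adjusted p = 0.52), for Cyp2c37 0.91 (SE 0.27, unadjusted p = 0.013, adjusted p = 0.56) and for Cyp3a11 0.78 (SE 0.27, unadjusted p = 0.024, adjusted p = 0.56), in limma. The others were Cyp2c55, Cyp2c29, Cyp2c50, Cyp2e1 and Cyp3a25, with differences of 0.42 to 0.71. Cyp2c38 (0.97) and Cyp2c39 (0.89) had larger differences than these 5, with unadjusted p of 0.053 and 0.052 in limma. Without normalization Cyp2c38 reached an unadjusted p under 0.05 in limma, and Cyp2c50 and Cyp2e1 did not. The difference of Cyp2e1 was 0.50 with normalization, 0.52 when genes listed at 0 were also left out, and 0.13 without normalization, and its HFD-fed libraries overlapped between the labels in FPKM. The median difference of the 37 genes was 0.15, and that of all genes 0.01. The CD-fed f/f libraries enter this test, the comparison of diet in f/f and that of genotype on CD. Close copies also share reads, so that the counts are not independent of each other. The 5 Kupffer cell and macrophage markers also had higher log2 fold changes on HFD than on CD, with differences of 0.43 to 0.78 and a median of 0.61. In limma 0 of 5 were called and 2 of 5 had an unadjusted p under 0.05, and their part in the P450 values was not tested.

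Genes around the P450s were read from lists compiled by hand. Each count for HFD over the genotype labels below stands against 5.04% of all genes called higher and 4.86% called lower. Of the 9 electron donors and chaperones, 1 changed with HFD over the genotype labels, Cyb5a (cytochrome b5, log2 fold change 0.36, SE 0.07, adjusted p = 0.023 in limma). In deposited FPKM Cyb5a had 1068 and 1020, 1002 and 917, 1151 and 1041, and 1025 and 1219, and the diets overlapped. Por, the oxidoreductase that feeds electrons to these enzymes, had 238 and 233, 165 and 237, 212 and 231, and 131 and 149 FPKM. Both HFD-fed LKO libraries lay below the other 6 (−0.63, SE 0.15, unadjusted p = 0.0041, adjusted p = 0.27 between the labels on HFD in limma). Fdx1, the ferredoxin of mitochondrial P450s, had 78.7 and 79.5, 73.4 and 75.1, 76.5 and 75.7, and 53.2 and 58.7. It had the same order (−0.41, SE 0.06, unadjusted p = 0.00040, adjusted p = 0.14 on HFD in limma). In the other direction, 3 of the 9 had an unadjusted p under 0.05 on HFD (9.58% of all genes, counting both directions). They were Cyb5b, a cytochrome b5 of mitochondria (0.37, SE 0.10, unadjusted p = 0.0092, adjusted p = 0.33), Cyb5r3, a cytochrome b5 reductase (0.26, SE 0.08, unadjusted p = 0.012, adjusted p = 0.34), and Pgrmc2 (0.28, SE 0.11, unadjusted p = 0.034, adjusted p = 0.47), in limma. Of 12 genes of heme supply, 1 changed with HFD over the genotype labels, Cpox (0.34, SE 0.06, adjusted p = 0.017 in limma), an enzyme of heme synthesis.

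Of 16 nuclear receptors and other regulators tested, 3 rose with HFD over the genotype labels in limma. Nr1i3, which encodes CAR, had 209.9 and 149.7, 121 and 145, 220.4 and 190.4, and 216 and 246 FPKM. It rose (0.58, SE 0.12, adjusted p = 0.030 in limma), although its f/f-labelled libraries overlapped between the diets. Cyp2b10, a target of CAR, fell in the same libraries. Nr1i2, which encodes PXR, had 30.3 and 26.9, 19.5 and 27.1, 26.7 and 28.8, and 23.9 and 28.6. Its diets overlapped under each label (0.10, SE 0.11, adjusted p = 0.62 in limma). Rxra, the partner of both receptors, rose (0.27, SE 0.04, adjusted p = 0.015 in limma), as did Hnf4a (0.28, SE 0.07, adjusted p = 0.048). Hnf4a had 102 to 119 FPKM on CD and 110 to 140 on HFD, an overlap that was absent within each label. Ahr had 11.0 and 10.1, 5.39 and 5.37, 10.6 and 6.78, and 10.5 and 7.91 FPKM. It was lower in both CD-fed LKO libraries (−0.83, SE 0.20, unadjusted p = 0.0044, adjusted p = 0.22 in limma). Of the 16 regulators, 2 others had an unadjusted p under 0.05 on CD (12.3% of all genes). They were Nr1i3, at −0.41 (SE 0.17, unadjusted p = 0.046, adjusted p = 0.39), and Cebpa, a hepatocyte transcription factor, at 0.46 (SE 0.08, unadjusted p = 0.00079, adjusted p = 0.15), in limma. On HFD 2 of the 16 had an unadjusted p under 0.05 in limma, both lower in LKO-labelled libraries (9.58% of all genes, counting both directions). Cebpa was 1 of them, with a log2 fold change of −0.41 (SE 0.08, unadjusted p = 0.0015, adjusted p = 0.23) in limma.

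Of 8 tested P450 genes listed as predominant in females, Cyp2b9 and Cyp2b13 rose and Cyp2b10 and Cyp2c69 fell with HFD over the genotype labels in limma, again where 9.89% of all genes were called, with a median log2 fold change of 0.37. Of 4 listed as predominant in males, 3 fell, with a median of −1.43. Cyp4a12a, a fatty acid hydroxylase, had 138 and 122, 114 and 173, 47.8 and 42.5, and 36.5 and 57.2 FPKM (log2 fold change −1.49, SE 0.17, adjusted p = 0.0069 in limma). The others that fell were its copy Cyp4a12b (−1.59, SE 0.23, adjusted p = 0.012) and Cyp7b1 (−1.37, SE 0.24, adjusted p = 0.020), an oxysterol hydroxylase. The 4th, Cyp2d9, had −0.06 (adjusted p = 0.74 in limma), and −0.28 without normalization (adjusted p = 0.072 in limma). In deposited FPKM its HFD-fed libraries (847 to 921) lay below its CD-fed libraries (1012 to 1251). Of the rest of the female list, Cyp2c40, Cyp2c39, Cyp2g1 and Cyp17a1 did not pass, and Cyp2a4, Cyp3a16, Cyp3a41a, Cyp3a41b and Cyp3a44 were at most 0.269 FPKM in every library.

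Of 10 pericentral markers outside the P450 families, 2 rose with HFD over the genotype labels, Glul (0.23, SE 0.05, adjusted p = 0.038) and Gulo (0.29, SE 0.06, adjusted p = 0.035) in limma, and the median of the 10 was 0.18. In deposited FPKM Glul overlapped between the diets, with 458 to 510 on CD and 488 to 525 on HFD. Of 10 periportal markers 3 fell, Sds (−0.67, SE 0.07, adjusted p = 0.0061), Cdh1 (−0.97, SE 0.13, adjusted p = 0.0088) and Pck1 (−0.67, SE 0.16, adjusted p = 0.048). Hsd17b13 rose (0.29, SE 0.05, adjusted p = 0.018), and the median of the list was −0.25. The part of these genes in the P450 values was not tested.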

How the data were processed

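Whole liver mRNA of 4 groups of mice (2 libraries per group, each a pool of 2 livers) was sequenced in pairs of reads on an Illumina instrument. The authors removed adapters, trimmed reads at a PHRED score of 20 (cutadapt 1.0), mapped them to GRCm38 (TopHat2 2.0.7) and estimated FPKM with Cufflinks (version not given in the sources used here; tool versions from the submitters' processing notes). The deposited unit is FPKM for 38283 genes, with no counts, so that the depth behind a value is unknown and count tests were not run. Near-identical paralogs divide their reads in a way set by Cufflinks.

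Identifiers were matched to GENCODE M21, and 58 protein-coding genes were taken by symbol. The genes and all lists were chosen with earlier results of these data known, and 1 gene of a list is not reported here. As in the study's methods, a gene entered the fit if any library exceeded 1 FPKM (11634 genes, 37 of the 58), and log2(FPKM + 1) was quantile normalized. A single limma 3.58.1 fit (R 4.3.3) of the 4 group means with a mean-variance trend gave 7 comparisons, in place of the permutation procedure of the study. It has 4 residual degrees of freedom, to which moderation added 2.80, and p-values were adjusted by Benjamini and Hochberg over all kept genes. A gene was called at an adjusted p under 0.05. The steps were tested on simulated data. The p-values measure the spread between pools of 2 mice.

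Genes named with every library's value are the 10 of highest mean FPKM, those called in any comparison, and up to 5 per comparison whose log2 fold change was largest in size, given an unadjusted p under 0.05 and no overlap of libraries. Listed genes outside the families may be named at an unadjusted p under 0.05. Nr1i2, Alb, Apoa1, Ttr, Serpina1c, Xist, Ddx3y and Rora, and P450 genes named at low values, are named outside this rule, chosen after their values were seen. Promoters were read from RefSeq (GRCm38.p6), aligned with Biopython 1.88, and figures drawn with matplotlib 3.10.9. Libraries of a group carry replicate numbers in their labels, which do not pair animals across groups. The alternatives were other scalings, pseudocount, filters, moderation, a replicate block, the libraries of a comparison alone and each library left out.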

Additional observations from a re-analysis of the deposited data

Results flagged for a closer look

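In Cyp2e1 and Cyp2c50 the normalized values of the genotype labels did not overlap on either diet and stood in opposite order on CD and HFD. Cyp2e1 had a log2 fold change of −0.17 on CD and 0.33 on HFD, a difference of 0.50 (SE 0.14, unadjusted p = 0.0094, adjusted p = 0.56 in limma). Without normalization the value on HFD was −0.03, and the difference 0.13. Cyp2c50 had −0.17 on CD and 0.32 on HFD, a difference of 0.50 (SE 0.18, unadjusted p = 0.030, adjusted p = 0.58 in limma), and 0.42 without normalization. Other genes whose fitted values changed sign between the diets, such as Cyp2b10, Cyp2c29 and Cyp2c37, overlapped between the labels on at least 1 diet. The adjusted test was not passed by either gene.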

How the results depend on the processing

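Counts of called genes moved most with the filter, the libraries fitted and the replicate block, and no called value changed sign. Of 910 alternative values for 83 results under 19 settings, 676 kept their side of the adjusted threshold or moved less than the replicate spread. A further 216 lost the call, 5 gained it and 13 ratios of subfamily sums moved. A value uncalled in the main fit counts as kept while it stays uncalled, whatever its unadjusted p. The 6 calls for diet in f/f became 3 with genes above 0 FPKM in at least 1 library, 2 with the replicate block, 0 with the libraries of the comparison alone and 0 to 3 with a library left out. The 7 for diet in LKO became 12 with FPKM above 1 in all libraries, 12 without genes listed at 0 (an alternative chosen after seeing the data), 0 with the filter above 0, 4 with the block, 0 with the libraries alone and 0 to 5 with a library left out. The 19 over the genotype labels became 12 with the filter above 0 and 9 to 12 with a library left out. For the genotype label over the diets, 0 became 1 (Cyp3a25) with FPKM above 1 in all libraries, with robust moderation and without genes listed at 0. Fits without 1 library assume that the lone library of its group varies like the others.

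Replicate numbers do not pair animals across groups, and the labels do not say whether same-numbered libraries were processed together. Pearson's r of deviations of same-numbered libraries was −0.0037 to 0.149 over the 6 pairs of groups, and the block gave 15 calls for the diet over the genotype labels. The depth behind low values such as those of Cyp2c55, Cyp2b13 and Cyp2c69 is unknown, and a listed 0 may be a failed estimate.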
